A study of Mus musculus with 17 samples.

Results

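CD8 T cells from core-enriched and rim-enriched lung tumour tissue were compared in knockout (KO) mice, which lack PD-L1 in the endothelium. The 10 libraries titled KO, 6 from the core and 4 from the rim, were taken from the 17 libraries of the series, and all 20137 genes with enough counts were compared. The mice that carry the loss are written PDL1DEC by the submitters; the sources used here give neither the promoter that drives the deletion nor the age of the mice, the tumour model or the number of animals behind a library. Core-enriched cells came from macroscopic lung nodules and rim-enriched cells from parenchymal nodules, and in every group the CD8 T cells were isolated by FACS and sequenced in bulk. The other 7 libraries, 5 core and 2 rim, came from WT mice with endothelial PD-L1 intact, and 1 of the WT core libraries is titled as a pool. The KO core libraries carry the identifiers F219, F318, F319, F322, F86 and O, and the KO rim libraries carry F15, F322, F86 and O, so that 3 identifiers occur at both sites. Whether each library stands for its own animal is not stated in the labels, and the p-values therefore weigh a difference only against the spread between libraries, which may be technical.

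PD-L1 on endothelial cells is a ligand of PD-1, the inhibitory receptor that activated and exhausted CD8 T cells carry. Within tumours, CD8 T cells range from stem-like cells, which keep Tcf7 and lymphoid homing receptors and can renew, to effector and terminally exhausted cells, which carry several inhibitory receptors. T cells that divide raise replication and mitosis genes and draw on glycolysis, and T cells leave tissue along a gradient of sphingosine 1-phosphate sensed by S1pr1.

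KO core libraries held 23250676 to 32566456 counts and KO rim libraries 21767045 to 24690274. Levels are given in CPM, read counts scaled to the library's total with TMM factors. Pairs of core libraries correlated at 0.918 to 0.939 in log2 CPM, pairs of rim libraries at 0.897 to 0.932 and pairs across the sites at 0.903 to 0.939. Cd8a, a chain of the CD8 co-receptor, stood at 1366 ± 233 CPM (SD, n = 6) in the core and 1228 ± 111 CPM (SD, n = 4) in the rim. Cd4, the co-receptor of helper T cells, stood at 46.3 ± 47.2 CPM (SD, n = 6) and 26.0 ± 24.6 CPM (SD, n = 4). Cd274, which encodes PD-L1, was present in these sorted cells at 138 ± 44.3 CPM (SD, n = 6) and 153 ± 15.7 CPM (SD, n = 4); the loss was made in endothelium, so this level does not check the genotype. By Xist and Y-linked reads, both F322 and both O libraries were male and the other 6 KO libraries female, with both libraries of each shared identifier of the same sex. The WT core pool held both Xist (34.9 CPM) and Y-linked reads (103 CPM). All other WT libraries had Xist and at most 0.179 CPM of Y-linked reads, so sex is not balanced between the genotypes.

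No gene passed an adjusted p of 0.05 between KO core and KO rim in edgeR's quasi-likelihood test with Benjamini-Hochberg adjustment, which is 0% of those tested. The smallest adjusted p was 0.572. At an unadjusted p under 0.05 there were 1600 genes, of which 690 (3.43%) had the higher level in the core and 910 (4.52%) the lower. DESeq2 called 33 genes, 15 higher and 18 lower in the core, and limma voom with quality weights called 2. These 2 were the low-count genes Trpa1 and Rbms3, which are also among the 33. A DESeq2 adjusted p is given below only for genes among the 33. Mki67, Ccnb2, Ccr7, Tcf7, Pdcd1, Gzmb and Tox, given with edgeR alone, were not called by DESeq2 either. In 161 genes (0.8%) every core library lay above every rim library, and in 161 (0.8%) every core library lay below every rim library. The fitted log2 fold change was above 0 in 52.7% of genes, with a median of 0.029. Within the identifiers found at both sites, core exceeded rim in all 3 in 13.3% of genes and lay below it in all 3 in 10% of genes. These percentages are the background for the gene lists that follow, and because no gene was called, every list is described by its counts and medians.

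Of 25 glycolysis and hypoxia genes tested, 22 had a higher fitted level in the core, 15 of them at an unadjusted p under 0.05, and none had a lower level at that p. In 7 of the 25, all 6 core libraries lay above all 4 rim libraries. The list's mean level was 6.77 to 7 log2 CPM in the core libraries and 6.25 to 6.62 in the rim libraries, and these ranges did not overlap. The median log2 fold change over the list was 0.37, and it stayed between 0.31 and 0.44 over 22 alternative analyses.

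Tpi1, the triose phosphate isomerase of glycolysis (GRCm38 chr6:124810586-124814158), was at 363.3, 317.9, 342.3, 332.2, 386.8 and 295.2 CPM in core libraries F219, F318, F319, F322, F86 and O. The rim libraries F15, F322, F86 and O had 232.2, 93.5, 165.7 and 245.4 CPM. The lowest core library therefore exceeded the highest rim library, and rim F322 was the lowest of all. The log2 fold change was 0.88 ± 0.21 (SE), with an adjusted p of 0.62 in edgeR and 0.0447 in DESeq2. Pkm, which encodes pyruvate kinase of the last glycolytic step (chr9:59656576-59679372), ranged from 1308 to 1470.2 CPM with a median of 1344 in the core. In the rim it stood at 1087, 729, 965 and 1031 CPM in F15, F322, F86 and O. These ranges did not overlap either, and the log2 fold change was 0.52 ± 0.108 (SE), with an adjusted p of 0.572 in edgeR and 0.0164 in DESeq2. Pgk1, the phosphoglycerate kinase that yields ATP (chrX:106187100-106203699), ranged from 198.8 to 266.3 CPM with a median of 223.5 in the core, against 198.3, 121.8, 147 and 162.5 CPM in rim F15, F322, F86 and O. Core F318 and rim F15 nearly met.

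Other enzymes with no overlap between the sites were Aldoa (aldolase, 879 CPM in the core and 665 in the rim), Pfkl (phosphofructokinase, 159.1 and 124.5 CPM) and Eno1 (enolase, 1223 and 931 CPM). Eno1 has a near-identical copy, Eno1b, with which the counting could have split its reads. In the KO libraries Eno1b had 59 to 155 raw counts and Eno1 had 18118 to 37414. Known hypoxia targets also had higher core means, with levels of 13.6 and 5.92 CPM for Egln3, an oxygen sensor, and 51.8 and 27.4 CPM for Bnip3, a mitophagy receptor. Both overlapped between the sites. Egln3 had 7.47 CPM in core F86 and 9.32 in rim F15, and Bnip3 had 30.8 in core O and 33.8 in rim F86. Core F319 had the highest Bnip3 level, 99.6 CPM. Pdk1, a pyruvate dehydrogenase kinase, went the other way at 61.0 and 102 CPM, with an unadjusted p of 0.19. The glucose transporter Slc2a1 was at 106 CPM at both sites.

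**Figure D1:**
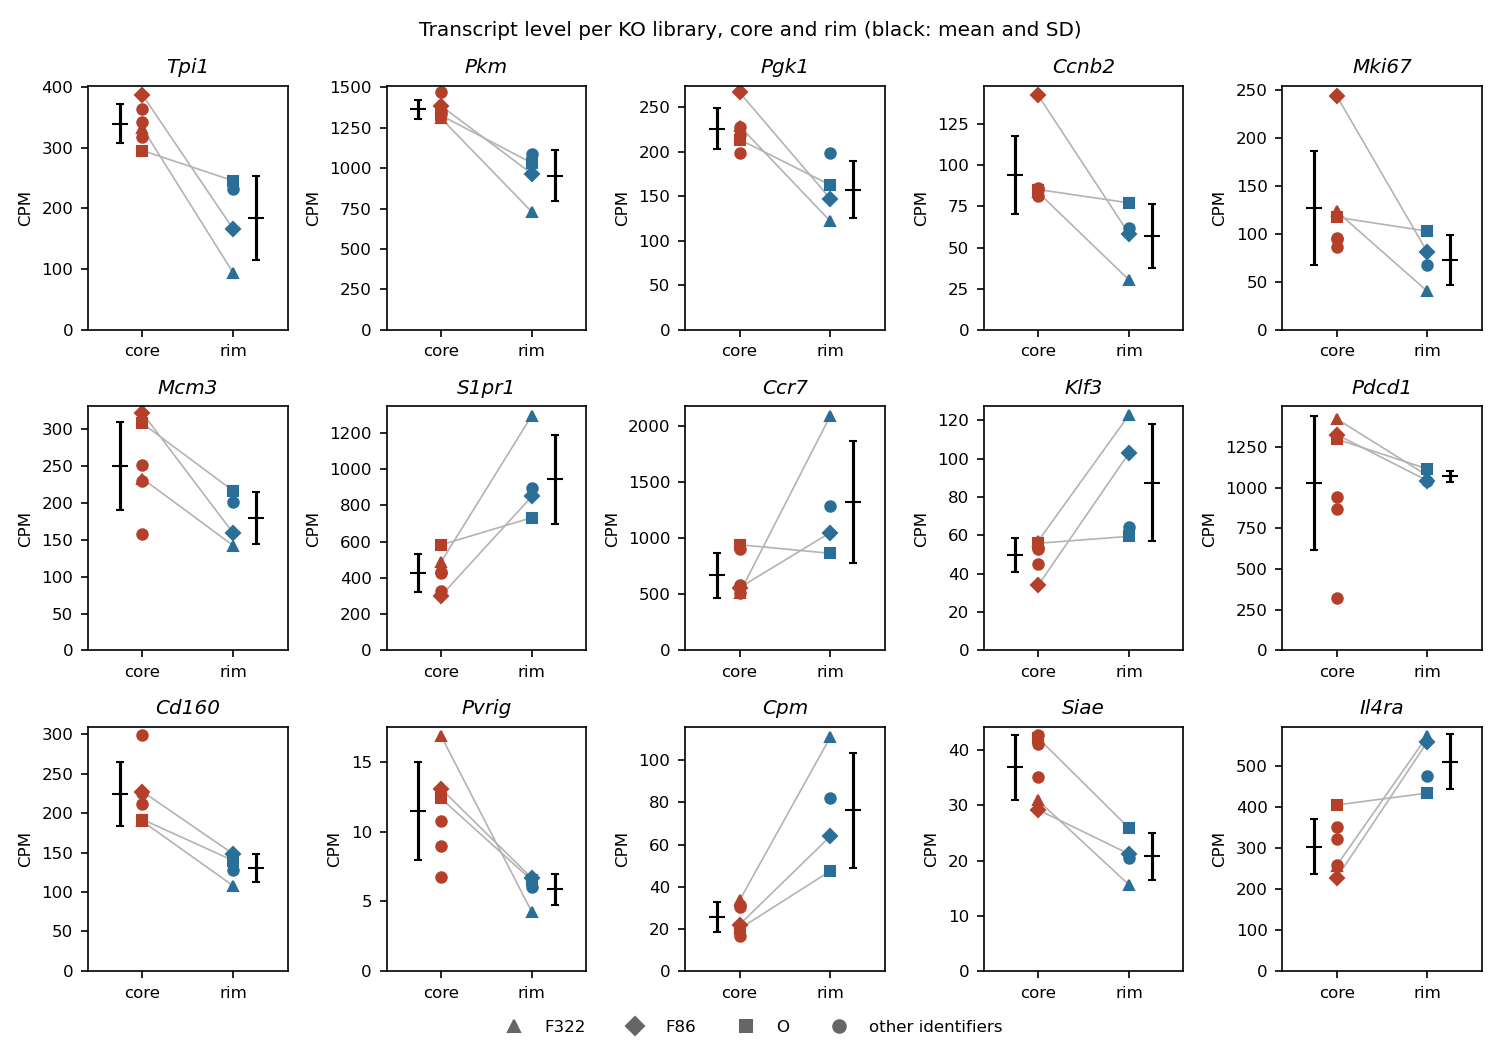
Level of 15 genes in each KO library in CPM, with core libraries on the left and rim libraries on the right of each panel, symbols for the identifiers, grey lines joining the 3 identifiers found at both sites, and black marks for the group mean and SD. The sites do not overlap for Tpi1, Pkm, Pgk1, Ccnb2, S1pr1, Klf3, Cd160, Pvrig, Cpm, Siae and Il4ra, while Mki67, Mcm3, Ccr7 and Pdcd1 do.

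Promoter sequences are shown for the glycolysis and mitosis lists, in which 88% and 96.4% of members had a fold change above 0. Other lists lay as much in 1 direction and have no sequence printed. Among them were oxidative phosphorylation (96.4%), killer-cell receptors (92.9%) and replication (88.9%). The window is the 250 bases before the most upstream start among the promoter windows available for a gene (GRCm38.p6). Of the 20137 tested genes, 14139 had one. That start can lie inside the RefSeq span of the gene. The Aldoa window (chr7:126800448-126800697) lies wholly within Aldoa (chr7:126795234-126800994). The core of hypoxia response elements, ACGTG or GCGTG on either strand, occurred in 16 of 23 glycolysis windows (69.6%), against 50.4% of all windows. In the other gene lists searched its share was 35.7% (stem-like genes) to 60.0% (heat shock and immediate early genes). The Pgk1 window holds 2 such matches, in capitals, beginning 150 and 131 bases before the start, and the Tpi1 window holds none. The Eno1 and Pfkl windows hold 1 each, and the Pkm and Aldoa windows hold none.
Pgk1, chrX:106186850-106187099, plus strand: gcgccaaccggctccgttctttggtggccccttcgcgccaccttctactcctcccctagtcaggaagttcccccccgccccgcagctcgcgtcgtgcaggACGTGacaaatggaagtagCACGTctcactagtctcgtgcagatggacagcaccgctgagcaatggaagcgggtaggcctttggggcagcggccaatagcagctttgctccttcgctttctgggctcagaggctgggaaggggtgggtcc
Tpi1, chr6:124814159-124814408, minus strand: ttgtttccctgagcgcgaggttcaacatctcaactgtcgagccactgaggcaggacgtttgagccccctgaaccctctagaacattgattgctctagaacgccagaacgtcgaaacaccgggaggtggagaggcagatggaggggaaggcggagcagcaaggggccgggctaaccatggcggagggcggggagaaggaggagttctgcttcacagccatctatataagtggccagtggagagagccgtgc
A missing match says only that these letters are not in the window.

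Mitosis genes were higher on average in the core, with a wide spread between identifiers. Of 28 mitosis and G2/M genes tested, 27 had a fitted fold change above 0, with 7 at an unadjusted p under 0.05, and 20 were higher in the core in all 3 shared identifiers. The median log2 fold change over the list was 0.65 (0.41 to 1.02 over the alternatives). The median difference within identifiers was 1.45 log2 CPM in F322, 1.37 in F86 and 0.19 in O. Rim O had a mean list level of 5.49 log2 CPM, above 4 of the 6 core libraries, and the other rim libraries had 5.07, 4.05 and 4.92. Core F86 had the highest level, 6.30.

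Mki67, the proliferation marker Ki-67 (chr7:135689784-135716450), was at 95, 86, 95.6, 123.5, 243.8 and 117.3 CPM in core F219, F318, F319, F322, F86 and O. Rim F15, F322, F86 and O had 67.5, 40.1, 80.9 and 102.8 CPM. Core F86 stood far above the rest, and rim O exceeded 3 core libraries. The log2 fold change was 0.80 ± 0.347 (SE), with an adjusted p of 0.62 in edgeR. Ccnb2, a mitotic cyclin (chr9:70407689-70421554), ranged from 81.4 to 143 CPM with a median of 85.2 in the core, against 61.9, 30.4, 58.5 and 77.2 CPM in rim F15, F322, F86 and O. It was the single mitosis gene without overlap, and its log2 fold change was 0.72 ± 0.253 (SE), with an adjusted p of 0.62 in edgeR. Top2a, the topoisomerase of dividing cells, had means of 299.6 ± 129.2 (SD, n = 6) and 201.4 ± 79.7 CPM (SD, n = 4). Ndc80, a kinetochore subunit, had means of 40.6 and 44.2 CPM, the one fitted value below 0, which turned to 0.252 with the identifier as a block.

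The CCAAT box (CCAAT or ATTGG), bound by NF-Y, occurred in 17 of 22 mitosis windows (77.3%), against 35.5% of all windows. In the other gene lists searched its share was 26.3% (oxidative phosphorylation) to 59.1% (replication). The cell cycle homology region (TTTGAA or TTCAAA) occurred in 7 of 22 mitosis windows (31.8%), against 12.4% of all windows and 5.26% to 14.3% in the other gene lists searched. Ccnb2 and Mki67 hold both, and their matches are in capitals. The Mki67 window overlaps the RefSeq span of the gene, which ends at chr7:135716450, so part of it is not upstream of that span.
Ccnb2, chr9:70421555-70421804, minus strand: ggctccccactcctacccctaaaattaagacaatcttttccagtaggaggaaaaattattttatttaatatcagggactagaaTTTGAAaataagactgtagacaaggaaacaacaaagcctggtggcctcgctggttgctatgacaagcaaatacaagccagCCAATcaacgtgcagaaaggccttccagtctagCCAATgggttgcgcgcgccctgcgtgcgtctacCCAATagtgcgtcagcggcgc
Mki67, chr7:135716380-135716629, minus strand: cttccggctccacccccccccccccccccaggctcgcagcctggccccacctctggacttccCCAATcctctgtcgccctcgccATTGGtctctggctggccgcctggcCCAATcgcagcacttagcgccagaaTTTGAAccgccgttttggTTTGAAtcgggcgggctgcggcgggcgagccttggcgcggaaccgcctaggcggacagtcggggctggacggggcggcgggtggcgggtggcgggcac
Ccnb2 has 3 CCAAT matches and 1 TTTGAA match, and Mki67 has 3 and 2. A match describes letters and shows no binding in these cells.

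DNA replication followed the same direction with smaller differences. Of 27 replication and G1/S genes, 24 had a fold change above 0, 10 of them at an unadjusted p under 0.05, and 19 were higher in the core in all 3 shared identifiers. The median log2 fold change was 0.46. Gins2, a subunit of the replicative helicase, was the member without overlap, with 9.51 to 23 CPM (median 12.6) in the core and 8.45, 6.01, 9.19 and 8.33 CPM in rim F15, F322, F86 and O. Mcm3, a subunit of the same helicase, had means of 250.5 ± 59.6 (SD, n = 6) and 179.7 ± 35 CPM (SD, n = 4), and core F319 at 157.6 CPM lay inside the rim range. Pcna, the sliding clamp, had 155 and 162 CPM.

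Subunits of oxidative phosphorylation differed little in size. All but 1 of 28 had a fold change above 0 and 10 had an unadjusted p under 0.05, with a median log2 fold change of 0.20. Cox7a2, a subunit of cytochrome c oxidase, had means of 92.1 and 68.6 CPM. Cytosolic ribosomal protein genes had a median of -0.085, and none of 29 had an unadjusted p under 0.05.

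**Figure D2:**
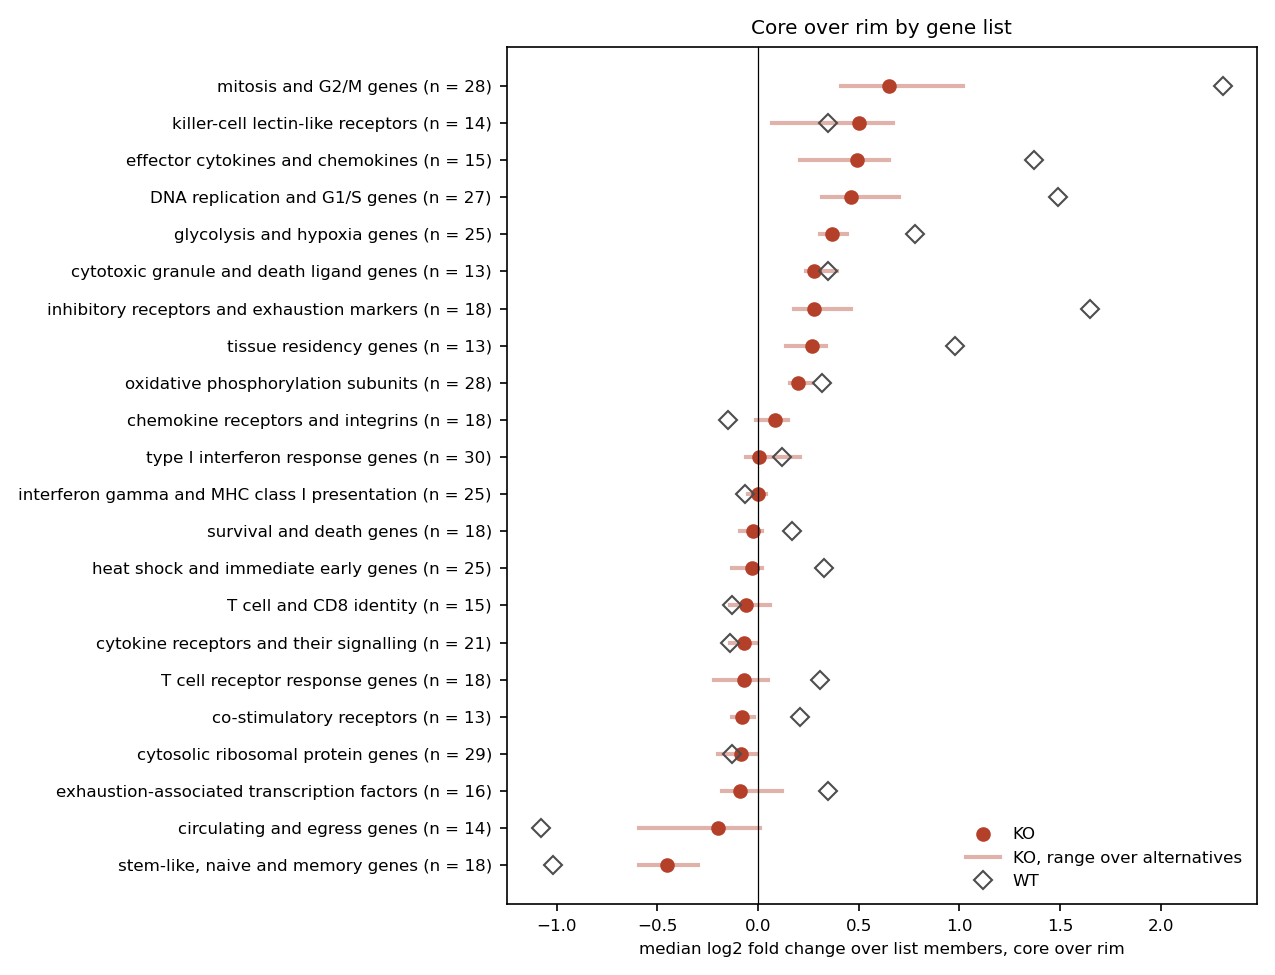
Median log2 fold change of core over rim for 22 gene lists, with filled points for KO, pale bars for the range of the KO median over the alternative analyses, and open diamonds for WT; n is the number of genes tested. The KO medians farthest to the right are those of mitosis (0.65), killer-cell receptors (0.50), effector cytokines (0.49), replication (0.46) and glycolysis (0.37), and that of stem-like genes (-0.45) lies farthest to the left.

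Genes of circulating T cells were mixed in direction, with 9 of 14 lower and 5 higher in the core by fitted fold change. S1pr1, the sphingosine 1-phosphate receptor of egress (chr3:115710433-115715055), stood at 435, 329, 425, 488, 302 and 582 CPM in core F219, F318, F319, F322, F86 and O. Rim F15, F322, F86 and O had 896.4, 1296.7, 850.0 and 733 CPM. All 6 core libraries lay below all 4 rim libraries, with core O and rim O closest to each other. The log2 fold change was -1.14 ± 0.249 (SE), with an adjusted p of 0.572 in edgeR and 0.0188 in DESeq2, and it ranged from -1.36 to -0.95 over the alternatives. S1pr4, a related receptor, had means of 113 and 163 CPM. Of the 14 circulating and egress genes, 3 had an unadjusted p under 0.05, all lower in the core, and 5 were lower in all 3 shared identifiers. The list median of -0.20 turned to 0.01 without rim F86.

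Of 18 stem-like, naive and memory genes, 15 had a fold change below 0, 6 of them at an unadjusted p under 0.05, and the median was -0.45 (-0.59 to -0.30 over the alternatives). Ccr7, the receptor that guides T cells to lymph nodes, ranged from 507.8 to 940.1 CPM with a median of 572 in the core, against 1285, 2088.5, 1049 and 863.5 CPM in rim F15, F322, F86 and O. Core O at 940.1 and core F219 at 898 CPM lay above rim O, so the sites overlapped, and the adjusted p was 0.62 in edgeR. Tcf7, the factor that maintains stem-like cells, had 337.7 ± 103.3 CPM (SD, n = 6) and 498.5 ± 128 CPM (SD, n = 4), with an adjusted p of 0.735 in edgeR. Klf3, a quiescence factor, was the member without overlap, at 33.9 to 57 CPM in the core and 64.6, 123, 103 and 59.5 CPM in rim F15, F322, F86 and O. Cxcr5, a follicle homing receptor, had means of 21.7 and 45.7 CPM. Xcl1, a chemokine of stem-like cells, went the other way with 124 and 82.9 CPM. The median difference over the list was -1.02 log2 CPM in F322, -0.74 in F86 and 0.043 in O.

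Of 18 inhibitory receptors and exhaustion markers, 13 had a fold change above 0, with 2 higher and 1 lower in the core at an unadjusted p under 0.05 and a median of 0.28. Pdcd1, which encodes PD-1 (chr1:94038305-94052553), was at 943, 320.9, 868, 1422, 1325.5 and 1297 CPM in core F219, F318, F319, F322, F86 and O, and at 1042, 1073, 1041.7 and 1114 CPM in rim F15, F322, F86 and O. The rim values lay close together inside a wide core range, whose lowest library was F318. The log2 fold change was -0.053 ± 0.382 (SE), with an adjusted p of 0.994 in edgeR, and became 0.132 without core F318. Lag3 and Havcr2, which encode LAG-3 and TIM-3, had fold changes of 0.34 ± 0.344 and 0.34 ± 0.368 (SE). Cd160 ranged from 189.7 to 299.7 CPM in the core and stood at 127.8, 107.8, 148.2 and 139.8 CPM in rim F15, F322, F86 and O. Pvrig, a receptor of the TIGIT family, ranged from 6.77 to 16.9 CPM in the core and stood at 6.06, 4.23, 6.67 and 6.51 CPM in the rim. These 2 of 18 members showed no overlap between the sites. Vsir, which encodes VISTA, had the lower core mean (243.6 and 299.8 CPM, unadjusted p 0.024). The exhaustion factor Tox had 344.5 ± 110.2 and 302.8 ± 45.7 CPM (SD, n = 6 and 4), with an adjusted p of 0.951 in edgeR, and the list of 16 exhaustion-associated transcription factors had a median of -0.091.

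Effector genes showed no member without overlap. Gzmb, the granule protease granzyme B, had 678 ± 195 CPM (SD, n = 6) in the core and 518 ± 102 CPM (SD, n = 4) in the rim, with an adjusted p of 0.834 in edgeR. Ifng, which encodes interferon gamma, had 189.1 ± 53.1 and 200.4 ± 60.3 CPM. Ccl3, a chemokine of activated T cells, had means of 215 and 99.1 CPM, with core F319 at 396 and core F86 at 369.8 CPM above the other 4 core libraries, which had 108.9 to 150.7 CPM. Of 13 cytotoxic genes 1 and of 15 cytokine and chemokine genes 1 had an unadjusted p under 0.05, both higher in the core. The medians were 0.28 for the cytotoxic list and 0.49 for the cytokine and chemokine list, the latter 0.21 to 0.65 over the alternatives. Of 13 residency genes 1 reached that p, and Itgae, the integrin CD103, had 205 and 209 CPM.

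Interferon and stress genes had medians near 0. The type I interferon list (30 genes) had a median of 0.0043 and the interferon gamma and MHC class I list (25 genes) -0.0019. Of 25 heat shock and immediate early genes, 6 had an unadjusted p under 0.05 and all 6 had lower core levels. Ier2, an immediate early gene, had 473 ± 54 CPM (SD, n = 6) in the core and 722.3 ± 166 CPM (SD, n = 4) in the rim, with an adjusted p of 0.0339 in DESeq2 and 0.572 in edgeR. Dnajb1, a co-chaperone of HSP70, had means of 247.7 and 426.5 CPM.

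Genes of T cell receptor signalling and response, co-stimulation and cytokine sensing had medians near 0 with more members lower than higher in the core. Of 18 T cell receptor response genes, 3 had lower and 1 had higher core levels at an unadjusted p under 0.05, with a median of -0.070. Nr4a1, an early factor induced through the receptor, had 921.8 ± 264 CPM (SD, n = 6) in the core and 1394 ± 208 CPM (SD, n = 4) in the rim (unadjusted p 0.0293), and core F318 at 1246 CPM lay above rim O at 1161 CPM. Tnfrsf9, the co-stimulatory receptor 4-1BB, differed in the other direction, with 330.1 ± 92.4 CPM (SD, n = 6) and 204.2 ± 57 CPM (SD, n = 4) and an unadjusted p of 0.0429. Of 13 co-stimulatory receptor genes 2 were lower at that p, among them Cd28, the receptor of CD80 and CD86, at 403 ± 121 and 584.5 ± 127 CPM (SD, n = 6 and 4). The list of 15 T cell identity genes had a median of -0.060.

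Of 21 cytokine receptor and signalling genes 3 were lower in the core at an unadjusted p under 0.05 and none higher. Ifngr1, the ligand-binding chain of the interferon gamma receptor, ranged from 1033 to 1645 CPM in the core and stood at 1870.4, 2115, 2087 and 1537 CPM in rim F15, F322, F86 and O, with rim O inside the core range. Il4ra, the interleukin 4 receptor chain, ranged from 227 to 405.1 CPM in the core and from 434 to 574 CPM in the rim, with no overlap. Of 18 chemokine receptor and integrin genes 2 were lower at that p, and Cxcr4, the receptor of CXCL12, had 49.4 ± 8.56 and 69.2 ± 18.5 CPM (SD, n = 6 and 4). Killer-cell lectin-like receptors had a median of 0.50, 13 of 14 above 0 and none at that p; the median was 0.20 without core F318 and 0.07 with the identifier as a block. Near-identical copies make these counts uncertain, and core F318 stood apart, with Klra1 at 76.5 CPM in core F318 and at 6.32 to 20.8 CPM in the other core libraries. Survival and death genes had a median of -0.027 over 18 members, 1 of them higher at that p (Bcl2a1d, a BCL2 family survival factor, 74.6 and 50.2 CPM).

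Over all genes of at least 5 CPM, the smallest p-values with the higher level in the core were those of Siae, Pkm, Nt5c2, Tpi1 and Ndufa12, and with the lower level those of Atg12, Cdkn2aip, Osbpl9, Cpm and Mat2a. Siae, a sialic acid esterase (chr9:37613821-37648258), ranged from 29.2 to 42.7 CPM in the core and stood at 20.4, 15.6, 21.2 and 25.9 CPM in rim F15, F322, F86 and O; its log2 fold change was 0.83 ± 0.166 (SE), with an adjusted p of 0.00466 in DESeq2 and 0.572 in edgeR. The gene Cpm, which encodes carboxypeptidase M (chr10:117629500-117687352), ranged from 16.7 to 33.5 CPM in the core and stood at 82.1, 111, 64 and 47.5 CPM in rim F15, F322, F86 and O. Its log2 fold change was -1.57 ± 0.338 (SE), with an adjusted p of 0.013 in DESeq2 and 0.572 in edgeR. Atg12, an autophagy conjugation protein, ranged from 83.9 to 105 CPM in the core and from 127.1 to 139.6 CPM in the rim, and was lower in the core by about the same amount in all 3 shared identifiers (-0.64, -0.67 and -0.60 log2 CPM). Mat2a makes S-adenosylmethionine and had means of 278 and 412 CPM, with no overlap.

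A pair of low genes, chosen after their values were seen, separated the sites almost as present and absent. Trpa1, a cation channel of sensory neurons, had 68, 59, 53, 79, 81 and 82 raw counts in core F219, F318, F319, F322, F86 and O, and 1, 0, 0 and 0 in rim F15, F322, F86 and O. Among the WT libraries it had 40 counts in core F164, 8 in rim H874 and at most 1 in the other 5. Rbms3, an RNA-binding protein of stromal cells, had 27, 60, 4 and 72 counts in rim F15, F322, F86 and O, 1 count in core F322 and 0 in the other 5 core libraries, with at most 1 count in any WT library. Because this separation chose the genes, and because Rbms3 has no more than 1 count in any library outside the KO rim, no p-value is given for them. Their calls in limma voom and DESeq2, given above, are likewise not used as support for a site difference.

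**Figure D3:**
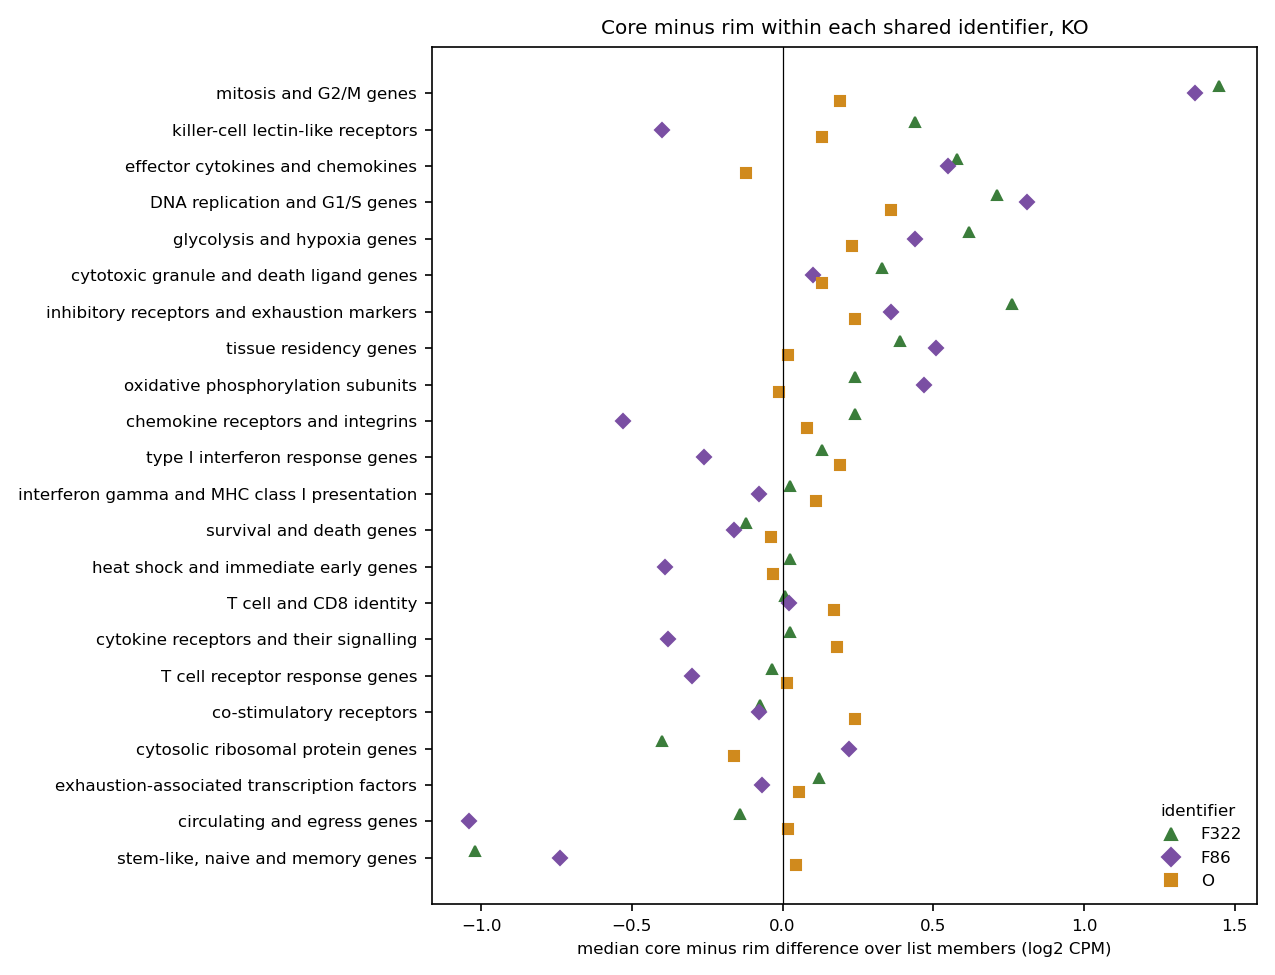
Median core minus rim difference in log2 CPM over each gene list within the identifiers F322 (triangles), F86 (diamonds) and O (squares), which occur at both sites. For mitosis and stem-like genes F322 and F86 lie far from 0 (1.45 and 1.37, -1.02 and -0.74) and O near it (0.19 and 0.043).

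Markers of other cell types varied widely between libraries of each site, and their part in the results was not tested. Of 13 B and plasma cell genes, 6 had an unadjusted p under 0.05, all lower in the core, with a list median of -1.58. Cd79a, a B cell receptor chain, ranged from 5.06 to 53.5 CPM in the core and stood at 93.4, 113, 19.7 and 61.8 CPM in rim F15, F322, F86 and O. The summed level of the list was 210.1 to 4071 CPM in the core and 385 to 1493 CPM in the rim, and 11 of the 13 genes had counts in all 10 libraries; Cr2 was at 0 in 1 core library and Ebf1 in 1 rim library. Cxcr5 and Ccr7, on the stem-like list, are also expressed by B cells. In bulk samples fewer cells of a type and less RNA per cell cannot be told apart. Immunoglobulin constant genes and the constant genes of the T cell receptor were not analysed here.

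Macrophage and monocyte genes had a median of 0.15, which ran from -0.15 to 0.85 over the alternatives and lay below 0 without core F219, rim F86 or rim F322, with none of 19 at an unadjusted p under 0.05. Their mean level was 6.59, 4.55, 4.13 and 7.32 log2 CPM in rim F15, F322, F86 and O, against 5.54 to 6.74 in the core, so that rim F322 and F86 were lowest of all and rim O highest. Their summed level was 4583 to 9053 CPM in the core and 3177 to 11427 CPM in the rim. Lung epithelial and tumour genes were at 1.18, 0.256, -0.176 and 4.36 log2 CPM in rim F15, F322, F86 and O, and in the core at 4.45 in F219 and 1.13 to 2.56 in the other 5, so that core F219 and rim O stood above the rest. The summed level was 275.5 to 1184.5 CPM in the core and 121 to 911 CPM in the rim, and 8 of the 18 genes had counts in all 10 libraries. Krt19, an epithelial keratin, had 138 CPM in rim O and 15.5, 1.74 and 9.99 CPM in rim F15, F322 and F86. All 15 dendritic cell and MHC class II genes had a fold change above 0, with a median of 0.60 (0.21 to 0.85 over the alternatives) and none at an unadjusted p under 0.05; without core F318 the median was 0.21 and 12 of the 15 lay above 0. Of 8 natural killer cell genes none had an unadjusted p under 0.05, and Ncr1, their activating receptor NKp46, stood at 12.1 and 26.3 CPM in core F219 and F318 and at 0.12 to 2.98 CPM in the other 8 libraries. Of 8 CD4 and regulatory T cell genes, 4 had a fold change above 0 and 4 below it. Their median was 0.20, and 0 to 0.55 over the alternatives. The 1 member lower in the core at an unadjusted p under 0.05 was Cd40lg, the ligand of CD40. It had 0.799 to 3.28 CPM in the core and 7.26, 5.76, 3.78 and 4.56 CPM in rim F15, F322, F86 and O. Neutrophil (9), endothelial (14) and fibroblast and mural cell (11) genes had none at that p in either direction. With the mean level of other-cell markers as a covariate, edgeR again called 0 genes, with a smallest adjusted p of 0.407 and 1728 genes at an unadjusted p under 0.05. Without both O libraries, an alternative chosen after seeing the data, it also called 0, with a smallest adjusted p of 0.163 and 1893 genes at that p. The main fit had 1600 genes at that p, and some alternatives had fewer. A sex term gave 1249, and the identifier as a block gave 710 of 15680 tested, each with 0 called. With 1 KO library left out, the count ran from 954 without rim F322 to 2011 without rim O.

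**Figure D4:**
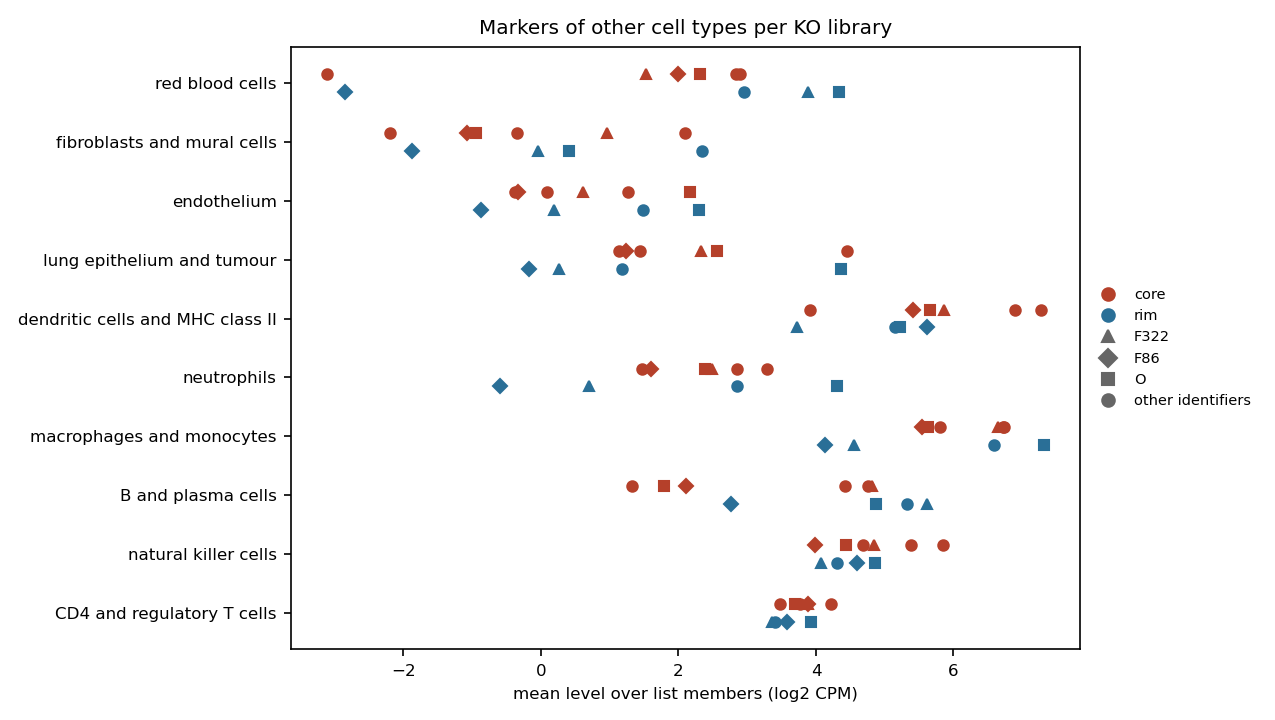
Mean level over the markers of 10 other cell types in each KO library in log2 CPM, with core libraries in red, rim libraries in blue and symbols for the identifiers. Rim O has the highest macrophage level (7.32) and rim F86 the lowest (4.13), and the core and rim points overlap in each of the 10 lists.

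The WT comparison of core with rim shares no library with the KO one. Both come from the same fit of all 17 libraries, with a shared estimate of each gene's spread, so their p-values are not independent. In WT, edgeR called 777 genes, 422 (2.1%) higher and 355 (1.76%) lower in the core; leaving out WT rim H874 reduced these to 68, WT core H719 to 500 and WT core H873 to 411. Without H874 or H877 the WT rim is 1 library, assumed to vary like the other groups, and the low-count filter then passes 23546 or 23367 genes. The WT values chose these genes, and the KO values are given for them here. Of the 422, 398 (94.3%) had a KO fold change above 0, 129 (30.6%) with an unadjusted p under 0.05 and none lower at that p, and 39 (9.24%) lay higher in the KO core without overlap. Of the 355, 349 (98.3%) had a KO fold change below 0, 190 (53.5%) with an unadjusted p under 0.05 and none higher. In the KO core 42 (11.8%) lay lower without overlap. Over all genes tested, 52.7% had a KO fold change above 0. At that p 3.43% were higher and 4.52% lower in the KO core, and 0.8% lay without overlap in each direction. The median log2 fold change of the 422 was 1.59 in WT and 0.33 in KO, and that of the 355 was -0.98 in WT and -0.37 in KO. Because the WT values chose the genes, the sizes of these medians are not compared. Over all 20137 genes the 2 fold changes had a Pearson r of 0.12 and a Spearman rho of 0.27, given as a description across genes, which are not independent replicates.

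**Figure D5:**
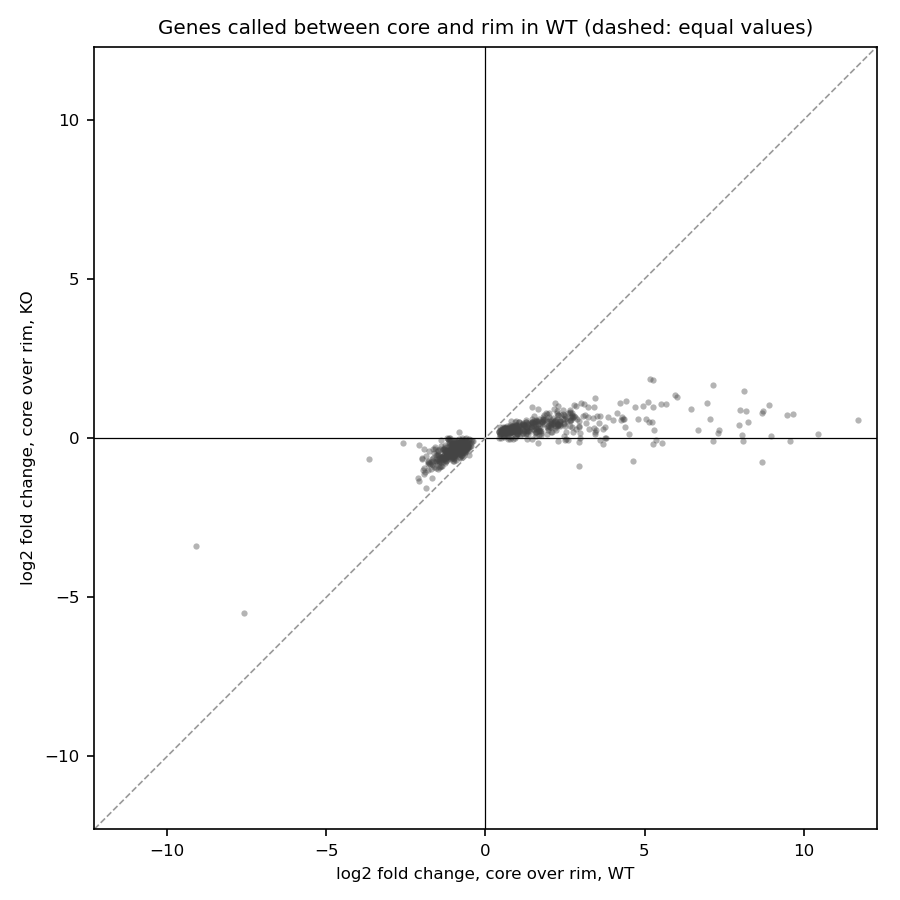
Log2 fold change of core over rim in WT (horizontal) and KO (vertical) for the 777 genes called in WT, with a dashed line of equal values. Of the genes on the right, 398 of 422 lie above 0 in KO, and of those on the left, 349 of 355 lie below 0.

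The difference between the genotypes in the core over rim fold change was tested gene by gene. By edgeR it was called in 0 genes (0%), with a smallest adjusted p of 0.0621 and 1547 genes at an unadjusted p under 0.05; DESeq2 called 159. Leaving out 1 library at a time gave 0 to 14 calls, with 14 when KO rim F322 was left out, 14 for WT rim H877, 5 each for WT core H876 and WT rim H874, 2 for the WT core pool and 1 for KO core F86; the counts without a WT rim library again rest on 1 library in that group. Xcl1 (chr1:164931644-164935522) had 124 and 82.9 CPM in KO core and rim, against 186 and 11.6 CPM in WT, and a difference in log2 fold change of -3.42 ± 0.537 (SE), with an adjusted p of 0.0621 in edgeR. Kntc1, a kinetochore protein, had 26.6 and 17.8 CPM in KO and 37.4 and 1.97 CPM in WT. Glp1r, the glucagon-like peptide 1 receptor, had 17.3 and 16.1 CPM in KO and 19.5 and 0.0663 CPM in WT. In these 3 genes the KO rim stood well above the WT rim, which rests on 2 libraries. Tpi1 had a WT log2 fold change of 2.43 and a difference of -1.54 ± 0.347 (SE), with an adjusted p of 0.25 in edgeR, and S1pr1 had -1.93 in WT and a difference of 0.79 ± 0.409 (SE), with an adjusted p of 0.682.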

How the data were processed

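The values are raw counts for 27240 gene symbols in 17 libraries, in a single table that the authors deposited without normalization. Per the submitters' processing notes, the tools were featureCounts, Subread 2.0.0, HISAT2, Bowtie2 2.4.5 and cutadapt 3.2, with builds GRCm38 and mm10; the sources used here give neither their order and settings nor strandedness. Per the labels' protocols, RNA came from the Qiagen RNeasy Micro Kit and libraries from the Illumina TruSeq RNA Library Prep Kit.

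Counts were fitted in R 4.3.3 with edgeR 4.0.16 (filterByExpr, TMM, robust quasi-likelihood, all 17 libraries in 4 groups, two-sided), and p-values were adjusted over 20137 genes. The SE is the log2 fold change over the square root of F. Levels are CPM with TMM factors, and log2 CPM uses a prior count of 2. Alternatives used DESeq2 1.42.0, limma 3.58.1, other scalings and filters, a sex term, a marker covariate, the KO libraries alone, the identifier as a block, and each library left out. The script was tested on simulated counts. Positions come from RefSeq GRCm38.p6. Members and gene lists were chosen with earlier results of these data known. Named genes were the 5 smallest p-values per direction, anchor genes, the 2 smallest p-values of each list, the 3 smallest of the KO minus WT difference, and genes added after their values were seen (Aldoa, Eno1, Pgk1, Pfkl, Ccnb2, Top2a, Trpa1, Rbms3, Tnfrsf9, Egln3, Bnip3, Pdk1, Slc2a1, Ndc80, Pcna, Vsir and Cd4).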

Additional observations from a re-analysis of the deposited data

Results flagged for a closer look

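In 275 sets of values from 1 site (a gene or list mean in the core or in the rim), 27 (9.82%) had a library that stood apart from the others by Dixon's criterion at the 5% level, by which chance alone would mark about 1 in 20. Core F318 held 8 of these. There Cd160 stood at 300 CPM, Klra1 at 76.5 CPM, Klra5 at 107 CPM, Irf9 at 156 CPM, Cd4 at 140 CPM and Postn at 0.844 CPM above the other core libraries, while Cxcr4 at 32.9 CPM and the mean red blood cell level at -3.11 log2 CPM lay below them. Klra genes are near-identical to each other, so their counts are uncertain. Core F319 held 5, with Tcf7 at 533 CPM, Bnip3 at 99.6 CPM, Mrc1 at 48.2 CPM and Ngp at 2.66 CPM above, and the mean level of interferon gamma and MHC class I genes at 7.73 log2 CPM below. Core F86 held 3, all cell cycle genes above the rest, with Mki67 at 244 CPM, Ccnb2 at 143 CPM and Gins2 at 23 CPM. Core F322 held 1, with Rbms3 at 0.0436 CPM, from a single count. Rim O held 6, with Krt19 at 138 CPM, Ngp at 8.58 CPM and Kntc1 at 25.2 CPM above the other rim libraries and Rtp4 at 47 CPM, Irf9 at 122 CPM and Osbpl9 at 210 CPM below them. Rim F86 held 2, with Slc2a1 at 131 CPM and Pcna at 194 CPM above the other rim libraries. Rim F15 held 2, with Nt5c2 at 49.6 CPM and Trpa1 at 0.0459 CPM, the latter from a single count.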

How the results depend on the processing

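Between KO core and KO rim, 0 genes were called in edgeR and 0 in each of the 10 left-out-library fits (0 to 0). DESeq2 called 33, limma voom with quality weights 2 and limma voom with the identifier as a block 2. Trpa1 and Rbms3 were the 2 in each voom fit and are also among the 33. With the identifier as a replicate block in the KO libraries 0 were called (smallest adjusted p 0.926). Same-identifier deviations correlated at 0.072, 0.045 and 0.082, all above 0. Pairs with different identifiers ran from -0.2 (core F318 with rim O) to 0.24 (core F318 with rim F86). The same-identifier values lie inside that range, so these correlations cannot decide whether the identifiers mark pairs. The main fit did not use the identifier, and the block fits above did. In WT, 777 became 1820 (DESeq2), 139 (voom) and 439 (marker covariate), and 68 to 795 with 1 library left out. For KO minus WT, 0 became 159 (DESeq2) and 4 (no filter), and 0 to 14 with 1 library left out. Of 106 genes followed through the alternatives, 94 kept their direction in those that could be fitted. With the identifier as a block, Pdcd1 turned to 0.321, Ifng to 0.05, Itgae to 0.211 (0.006 in voom), Klra5 to -0.063, Mrc1 to 0.541 (0.312 in voom), Ncr1 to -1.1, Ndc80 to 0.252 and Pcna to 0.096. Without both O libraries Mrc1 turned to 0.642, Ngp to 6.77 and Glp1r to -0.01. Mrc1 turned to 0.314 and Ngp to 1.061 with the covariate, Ngp to 2.337 with the sex term, and in voom Glp1r to -0.024 and Slc2a1 to 0.023. With 1 library left out, the values ran for Pdcd1 from -0.167 to 0.132, Ifng from -0.248 to 0.132, Itgae from -0.156 to 0.154, Entpd1 from -0.048 to 0.16, Mrc1 from -1.064 to 0.573, Ngp from -7.506 to 6.551, Glp1r from -0.024 to 0.397, Slc2a1 from -0.062 to 0.105 and Pcna from -0.144 to 0.028. The cause of these turns was not tested.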
